A study of Mus musculus with 8 samples.

Results

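The complement system was followed through 9 genes in dendritic cells sorted from mouse thymus. They were the 3 chains of C1q (C1qa, C1qb and C1qc), the components C2, C3, Cfb and Cfp, and the receptors C3ar1 and C5ar1. A probe was taken for a gene where its RefSeq accession maps to that symbol. This gave 10 of the 55681 probes on the array, 2 of them for C3, and 9 of the 37208 genes or accessions represented there. Of these 9 genes, 8 (all but C5ar1) had a probe that both arrays of some group showed well above background, and these entered the tests. Sirpa is an inhibitory receptor displayed by one subset of thymic dendritic cells. Sorting by Sirpa and by maturation state gave 4 groups with 2 arrays each. Replicates 1 and 6 were Sirpa-positive mature cells and replicates 3 and 5 Sirpa-positive immature cells. Replicates 2 and 8 were Sirpa-negative mature cells, and replicates 4 and 7 Sirpa-negative immature cells. The series concerned CD40, a receptor that T cells engage on antigen-presenting cells, during dendritic cell maturation and regulatory T cell formation. The labels give no treatment, strain, age or further sort marker for any group. Whether both arrays of a group came from different mice or sorts is not given in the sources used here, so a p-value here covers just the spread between these samples, possibly a technical one.

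Complement is a cascade of blood and tissue proteins that tags particles for uptake and can perforate membranes. C1q recognises bound antibody, dying cells and other surfaces and opens the classical pathway, in which C2 supplies the protease of the C3 convertase. C3 is the central component cut by every pathway, Cfb is the matching protease of the alternative pathway, and properdin (Cfp) stabilises that pathway's convertase. C3ar1 and C5ar1 are receptors for the small fragments C3a and C5a. Liver makes most circulating complement, whereas C1q and properdin come largely from myeloid cells, among them macrophages and dendritic cells.

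The values below are relative signals, the processed signal of a probe divided by the 75th percentile of its array. They are compared only within a probe. That percentile ranged from 147 to 313 intensity units over the 8 arrays, 52.9% to 65.5% of spots were well above background, and no spot (0) was saturated. Across genes, the correlation was 0.979 to 0.987 within a group and 0.908 to 0.963 between groups. Sirpa itself was 114-fold higher in Sirpa-positive than Sirpa-negative immature cells and 28.3-fold higher among mature cells. Ccr7, a chemokine receptor of mature dendritic cells, was 71.7-fold higher in mature than in immature Sirpa-positive cells and 51.5-fold higher in the Sirpa-negative subset. Of 15 fixed markers of conventional dendritic cells, 13, 15, 14 and 15 were above background on both arrays of a group, first in Sirpa-positive mature and immature cells and then in Sirpa-negative mature and immature cells.

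The stretch of 250 bases before the start site is shown for C1qb, C1qc, C3 and C3ar1. The C1q chains had the largest subset differences, and C3 and the receptor of its fragment, C3ar1, were higher in the same subset. No such stretch was available for C1qa, C2 or Cfb. Those of Cfp and C5ar1, which held no match to the motifs searched, are not shown. The letters are from RefSeq, build GRCm38.p6, minus strand, at chr4:136886201-136886450 (C1qb), chr4:136892915-136893164 (C1qc), chr17:57228137-57228386 (C3) and chr6:122856158-122856407 (C3ar1). Capitals mark matches to any of 6 motifs searched on both strands.
C1qb: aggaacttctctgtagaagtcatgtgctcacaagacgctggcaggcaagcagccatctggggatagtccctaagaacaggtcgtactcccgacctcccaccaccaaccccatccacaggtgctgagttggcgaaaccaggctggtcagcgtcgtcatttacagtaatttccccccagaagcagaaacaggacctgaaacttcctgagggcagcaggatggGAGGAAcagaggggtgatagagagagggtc
C1qc: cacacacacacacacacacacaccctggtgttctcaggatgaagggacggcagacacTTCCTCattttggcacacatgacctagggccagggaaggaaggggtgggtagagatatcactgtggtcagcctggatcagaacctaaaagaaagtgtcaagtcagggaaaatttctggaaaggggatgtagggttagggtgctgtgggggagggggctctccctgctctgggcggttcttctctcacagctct
C3: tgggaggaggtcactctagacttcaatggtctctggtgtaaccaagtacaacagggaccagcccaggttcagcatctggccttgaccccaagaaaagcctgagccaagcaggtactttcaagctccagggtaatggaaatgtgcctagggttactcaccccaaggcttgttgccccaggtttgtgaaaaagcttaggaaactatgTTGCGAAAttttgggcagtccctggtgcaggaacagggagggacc
C3ar1: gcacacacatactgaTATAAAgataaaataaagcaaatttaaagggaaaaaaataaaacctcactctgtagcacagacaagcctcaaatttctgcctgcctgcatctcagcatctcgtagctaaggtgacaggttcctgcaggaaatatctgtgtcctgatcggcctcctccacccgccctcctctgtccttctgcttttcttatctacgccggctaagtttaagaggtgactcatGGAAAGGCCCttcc

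The core GAGGAA, bound by the myeloid factor PU.1, stood at -30 to -25 from the start site in C1qb and, on the other strand, at -193 to -188 in C1qc. It is short and common, found in 23.3% of 32851 RefSeq promoter windows of the same length. C3 held the C/EBP motif TTGCNNAA, as TTGCGAAA at -45 to -38, which 9.56% of windows hold. C3ar1 held TATAAA, the TATA box, at -235 to -230 (12.4% of windows) and the NF-kB motif (GGG, any 2 bases, TTTCC) on the other strand at -14 to -5 (1.41% of windows). No match overlapped another. The interferon response motif (GAAA, any 2 bases, GAAA; 2.98% of windows) and the STAT motif TTCNNNGAA (7.02% of windows) had no match in the windows of C1qb, C1qc, C3, C3ar1, Cfp or C5ar1. Cfp and C5ar1 matched none of the 6 motifs. C1qb, C1qc and C1qa follow each other on chromosome 4 with no other protein-coding gene between them, and Cfb and C2 are likewise neighbours on chromosome 17. A match is a description of the letters and not a measured binding site.

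The subsets differed in all 8 tested genes of the set. Among immature cells 8 of 8 were higher in the Sirpa-positive than the Sirpa-negative subset, where 7.23% of the 24145 genes tested were higher (limma, adjusted p under 0.05). Among mature cells 8 of 8 were again higher in Sirpa-positive cells, where 3.38% of all tested genes were. The median log2 difference of the 8 genes was 6.97 among immature and 5.08 among mature cells, against -0.11 and -0.07 over all genes. Setting C1qc at its bound cannot move this median, since C1qc lies above the middle genes either way. A probe had to be bright in only 1 group to be tested. These 8 genes are those that passed that filter and not the whole set of 9. The set was also chosen with earlier results of these data known. The shares over all genes are therefore a description and no test of the set. RNA from sorted cells was measured in bulk, so fewer cells of a type and less RNA per cell cannot be told apart.

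**Figure D1:**
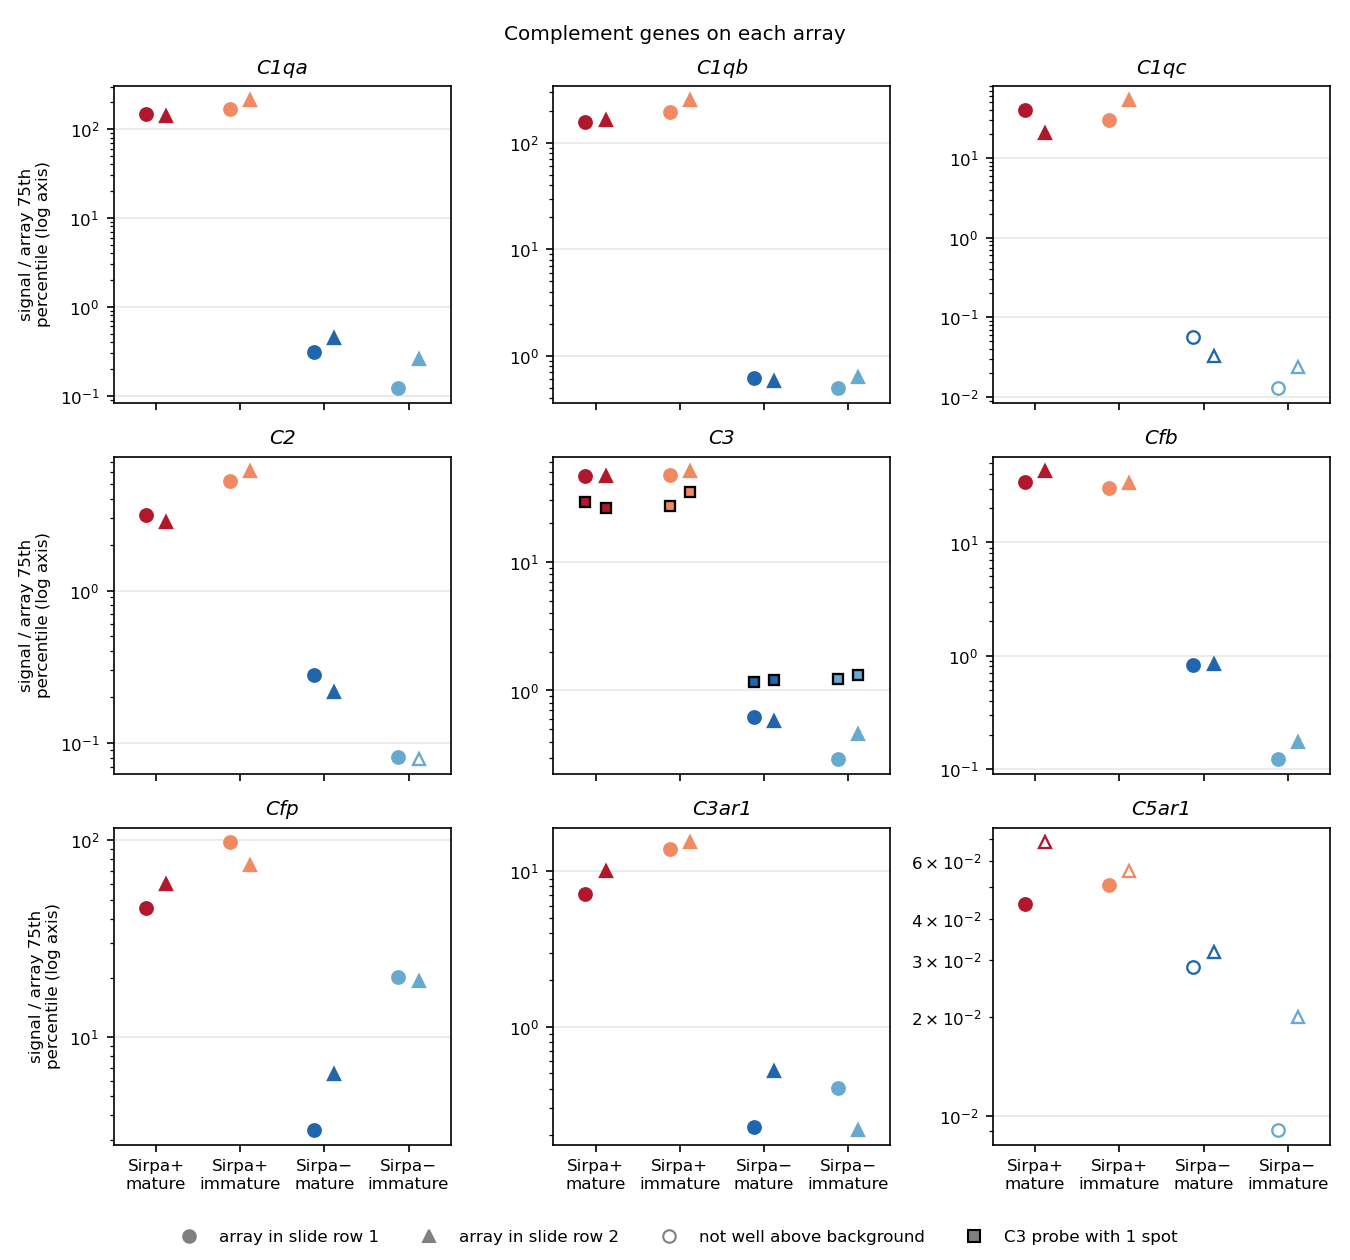
Relative signal of each complement gene on every array (log axis, processed signal over the array's 75th percentile), with the 4 groups along the x axis, circles and triangles for the first and second slide row, open symbols for signals not well above background and squares for the C3 probe with 1 spot. The Sirpa-positive arrays lie above the Sirpa-negative arrays in the panels of the 8 tested genes, by the narrowest margin for Cfp. C5ar1 is mostly below background, so the order of its groups is not read.

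The C1q chains, whose products assemble into a single protein, were the members with the largest subset differences. C1qa had relative signals of 145 and 139.5 in Sirpa-positive mature cells and 209 and 169 in Sirpa-positive immature cells, against 0.306 and 0.447 in Sirpa-negative mature cells and 0.259 and 0.121 in Sirpa-negative immature cells. C1qb had 156 and 165 in Sirpa-positive mature cells and 251 and 195 in Sirpa-positive immature cells, against 0.616 and 0.585 in Sirpa-negative mature cells and 0.632 and 0.495 in Sirpa-negative immature cells. For both genes all 4 Sirpa-positive arrays were high and all 4 Sirpa-negative arrays low but above background. C1qc, printed as 10 spots, had 40.0 and 20.8 in Sirpa-positive mature cells and 52.8 and 29.8 in Sirpa-positive immature cells, against 0.0575 and 0.0330 in Sirpa-negative mature cells and 0.0239 and 0.0129 in Sirpa-negative immature cells. No Sirpa-negative array showed C1qc above background.

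Among immature cells C1qa was 10.05 ± 0.378 higher in Sirpa-positive cells (log2 difference with SE, 2 arrays per group, limma adjusted p = 2.37e-05), a 1062-fold difference. C1qb was 396-fold higher (8.63 ± 0.224, limma adjusted p = 2.27e-05), and C1qc at least 585-fold higher (limma adjusted p = 3.43e-05). "At least" sets the brighter group against the lowest signal counted as above background where the dimmer group is below it. In mature cells the differences were 385-fold for C1qa (8.59 ± 0.378, limma adjusted p = 8.66e-05), 267-fold for C1qb (8.06 ± 0.224, limma adjusted p = 4.57e-05) and at least 419-fold for C1qc (limma adjusted p = 0.000119). The size depends on the background treatment where signals are dim. With normexp background correction the log2 difference of C1qc was 7.27 among immature and 6.51 among mature cells, and that of C1qa 8.93 and 7.91. All of these passed.

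C1q did not pass in either maturation comparison. In Sirpa-positive cells C1qa stood at -0.40 (mature minus immature, log2, 95% interval -1.29 to 0.49), C1qb at -0.47 (-0.99 to 0.06) and C1qc at -0.46 (-1.61 to 0.69), with limma adjusted p between 0.308 and 0.686. In Sirpa-negative cells C1qa stood at 1.06 (0.18 to 1.95, limma adjusted p = 0.105) and C1qb at 0.10 (-0.42 to 0.63, limma adjusted p = 0.812). C1qc was below background in both Sirpa-negative groups, and no fold is given. That C1qa difference ran between 0.51 (without replicate 7, limma adjusted p = 0.394) and 1.61 (without replicate 4, limma adjusted p = 0.0325) when an array was left out, and was 0.39 with normexp (limma adjusted p = 0.392). In the order of the 4 levels, only the step between the subsets passed for each chain, and the steps within a subset did not, that of C1qc in Sirpa-negative cells being between signals below background. The 3 profiles had correlations of 0.994 to 0.996 over the 8 arrays, given as a description, since the arrays share their groups.

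C2, the classical pathway protease, had a separate level in each group. Its relative signals were 3.11 and 2.80 in Sirpa-positive mature cells and 6.05 and 5.23 in Sirpa-positive immature cells, against 0.280 and 0.215 in Sirpa-negative mature cells and 0.0781 and 0.0808 in Sirpa-negative immature cells. The groups did not overlap, and 1 of the 2 Sirpa-negative immature arrays (replicate 4) was not above background. C2 was 70.8-fold higher in Sirpa-positive than Sirpa-negative immature cells (6.15 ± 0.216, limma adjusted p = 2.37e-05) and 12.1-fold higher among mature cells (3.59 ± 0.216, limma adjusted p = 0.000193). With normexp correction these differences were 4.12 and 2.66 on the log2 scale, and with the authors' values the first was 4.77.

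With maturation C2 fell in Sirpa-positive cells and rose in Sirpa-negative cells. The fall was 1.90-fold (-0.93 ± 0.216, limma adjusted p = 0.0489) and lies close to the threshold. It passed under 7 of 17 alternatives, over which its adjusted p ran between 0.0116 and 0.266. With the slide row as a block it missed the threshold (limma adjusted p = 0.0966), as it did with quantile normalization (0.0769), with no filter (0.170), with only the compared arrays (0.0747) and without replicate 1 (0.109), 6 (0.197), 3 (0.266), 5 (0.168), 4 or 7 (0.0781 each). In the Sirpa-negative subset C2 rose 3.08-fold (1.63 ± 0.216, limma adjusted p = 0.00373), a call that was lost with normexp correction (0.56, limma adjusted p = 0.0606). The difference between both maturation effects was -2.55 ± 0.306 and did not pass (limma adjusted p = 0.0688).

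C3 lay high in both Sirpa-positive groups and did not pass for maturation. The probe that stands for the gene, printed once, had 29.4 and 26.1 in Sirpa-positive mature cells and 34.9 and 27.1 in Sirpa-positive immature cells, against 1.16 and 1.20 in Sirpa-negative mature cells and 1.32 and 1.22 in Sirpa-negative immature cells. A further C3 probe, printed as 10 spots, had 46.6 and 46.7 in Sirpa-positive mature cells and 50.5 and 47.2 in Sirpa-positive immature cells, against 0.621 and 0.578 in Sirpa-negative mature cells and 0.459 and 0.292 in Sirpa-negative immature cells. Both probes separated the subsets on all 8 arrays and disagreed on the size. By the first, C3 was 24.3-fold higher among immature cells (4.60 ± 0.210, limma adjusted p = 4.00e-05) and 23.5-fold higher among mature cells (4.55 ± 0.210, limma adjusted p = 8.66e-05). By the other probe the log2 differences were 7.06 and 6.28. Maturation gave -0.15 in Sirpa-positive cells (95% interval -0.64 to 0.34, limma adjusted p = 0.768) and -0.10 in Sirpa-negative cells (-0.59 to 0.39, limma adjusted p = 0.795). The sign in Sirpa-negative cells was positive with the other probe, at 0.71 (limma adjusted p = 0.102).

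**Figure D2:**
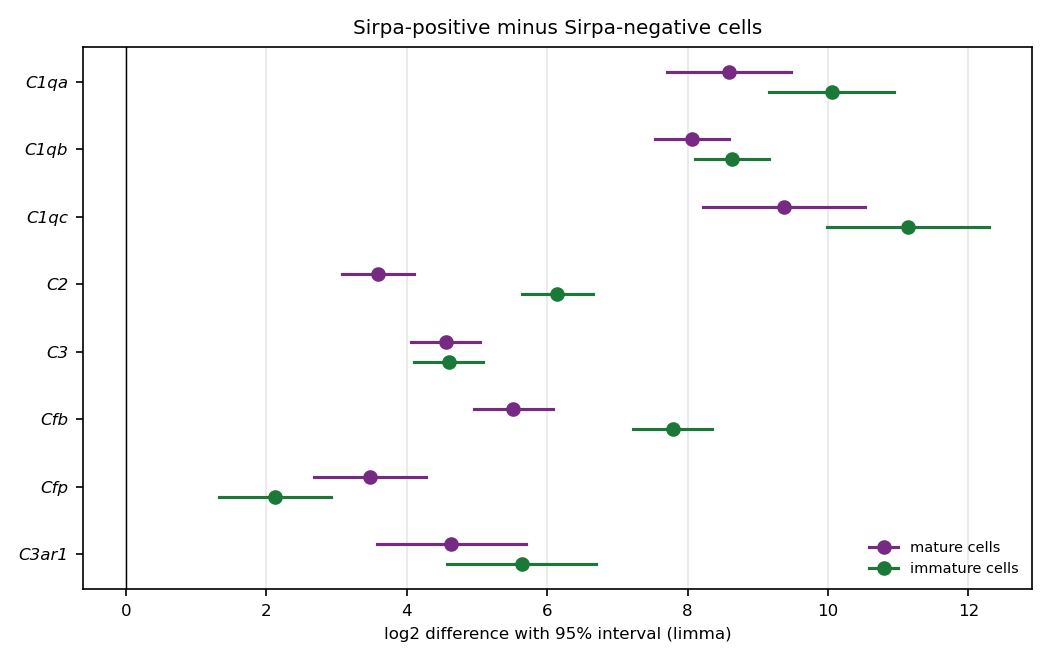
Log2 difference, Sirpa-positive minus Sirpa-negative, of the 8 tested complement genes in mature and in immature cells, with 95% intervals from limma as bars (n = 2 arrays per group). All 16 points lie above 2 on the log2 scale, and those of C1qc are drawn at fitted values against a Sirpa-negative signal below background, so that their place among the genes is not measured.

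The alternative pathway genes Cfb and Cfp changed with maturation in Sirpa-negative cells, in opposite directions. Cfb had relative signals of 34.1 and 42.5 in Sirpa-positive mature cells and 33.4 and 30.2 in Sirpa-positive immature cells, against 0.818 and 0.840 in Sirpa-negative mature cells and 0.171 and 0.121 in Sirpa-negative immature cells. The mature arrays lay above the immature ones in both subsets, narrowly in Sirpa-positive cells and by more in Sirpa-negative cells. Cfb rose 5.77-fold with maturation in Sirpa-negative cells (2.53 ± 0.240, limma adjusted p = 0.00112) and had a difference of 0.26 in Sirpa-positive cells (95% interval -0.30 to 0.83, limma adjusted p = 0.635). The difference between these effects, -2.27 ± 0.340, did not pass (limma adjusted p = 0.0867). Cfb was 220.9-fold higher in Sirpa-positive than Sirpa-negative immature cells (7.79 ± 0.240, limma adjusted p = 2.27e-05) and 45.9-fold higher among mature cells (5.52 ± 0.240, limma adjusted p = 8.66e-05). In its order of levels the step from Sirpa-positive immature to Sirpa-negative mature cells passed too (5.26, limma adjusted p = 3.43e-05), a comparison in which 9.01% of all tested genes were higher. With normexp correction the rise was 1.36, the first of these subset differences 6.33 and the difference between the effects -1.33 (limma adjusted p = 0.0303).

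Properdin, Cfp, had the smallest subset difference of the 8 tested genes among immature cells. Its relative signals were 45.4 and 59.9 in Sirpa-positive mature cells and 75.3 and 97.8 in Sirpa-positive immature cells, against 3.36 and 6.51 in Sirpa-negative mature cells and 19.2 and 20.3 in Sirpa-negative immature cells. Here the Sirpa-negative immature cells held a clear signal and the Sirpa-negative mature cells the lowest. Cfp fell 4.21-fold with maturation in Sirpa-negative cells (-2.08 ± 0.340, limma adjusted p = 0.00802). In Sirpa-positive cells the difference was -0.72 ± 0.340 (95% interval -1.52 to 0.08, limma adjusted p = 0.299). The effects themselves were not shown to differ (1.36 ± 0.481, limma adjusted p = 0.5003). Cfp was 4.35-fold higher in Sirpa-positive than Sirpa-negative immature cells (2.12 ± 0.340, limma adjusted p = 0.00724), and without replicate 5 this missed the threshold (1.93, limma adjusted p = 0.0543). Among mature cells it was 11.1-fold higher (3.48 ± 0.340, limma adjusted p = 0.00147). In its order of levels both steps below the Sirpa-positive groups passed, the first of them from Sirpa-positive mature to Sirpa-negative immature cells (1.40, limma adjusted p = 0.0254), a comparison in which 11% of all tested genes were higher.

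The fragment receptors differed in whether they could be measured at all. C3ar1 had relative signals of 7.14 and 10.02 in Sirpa-positive mature cells and 15.4 and 14.0 in Sirpa-positive immature cells, against 0.226 and 0.516 in Sirpa-negative mature cells and 0.216 and 0.403 in Sirpa-negative immature cells. All Sirpa-positive arrays were above all Sirpa-negative arrays, and the Sirpa-negative states overlapped. C3ar1 was 49.7-fold higher in Sirpa-positive than Sirpa-negative immature cells (5.64 ± 0.452, limma adjusted p = 0.000344) and 24.8-fold higher among mature cells (4.63 ± 0.452, limma adjusted p = 0.00146). Without replicate 2 or 8 the difference among mature cells was 4.03 or 5.23. Maturation gave -0.79 in Sirpa-positive cells (95% interval -1.85 to 0.27, limma adjusted p = 0.398) and 0.21 in Sirpa-negative cells (-0.85 to 1.27, limma adjusted p = 0.805).

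C5ar1 was near background throughout and was not tested. Its relative signals were 0.0444 and 0.0684 in Sirpa-positive mature cells, of which the first was above background. In Sirpa-positive immature cells they were 0.0560 and 0.0507, with only the second above background. Sirpa-negative mature cells gave 0.0286 and 0.0316 and Sirpa-negative immature cells 0.0201 and 0.00906, none of them above background. With 1 array above background in each Sirpa-positive group, no order of the 4 groups is given.

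Fewer of the complement genes passed in the maturation comparisons than in the subset comparisons. In Sirpa-positive cells 1 of 8, C2, fell, where 2.53% of all tested genes fell, and none (0) rose by limma, where 4.35% rose. In Sirpa-negative cells Cfb and C2 rose, 2 of 8 where 9.22% of all tested genes rose, and Cfp fell, 1 of 8 where 7.24% fell. The median log2 difference of the 8 genes was -0.46 in Sirpa-positive and 0.64 in Sirpa-negative cells, against 0.03 and -0.01 over all genes. The difference between both maturation effects passed limma's adjusted threshold for 0 of 8 complement genes and 0% of all genes, and 1945 of the 24145 genes had an unadjusted p under 0.05. With the authors' values it passed for C2 (-1.75, limma adjusted p = 0.0367) and Cfb (-1.67, limma adjusted p = 0.0276).

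**Figure D3:**
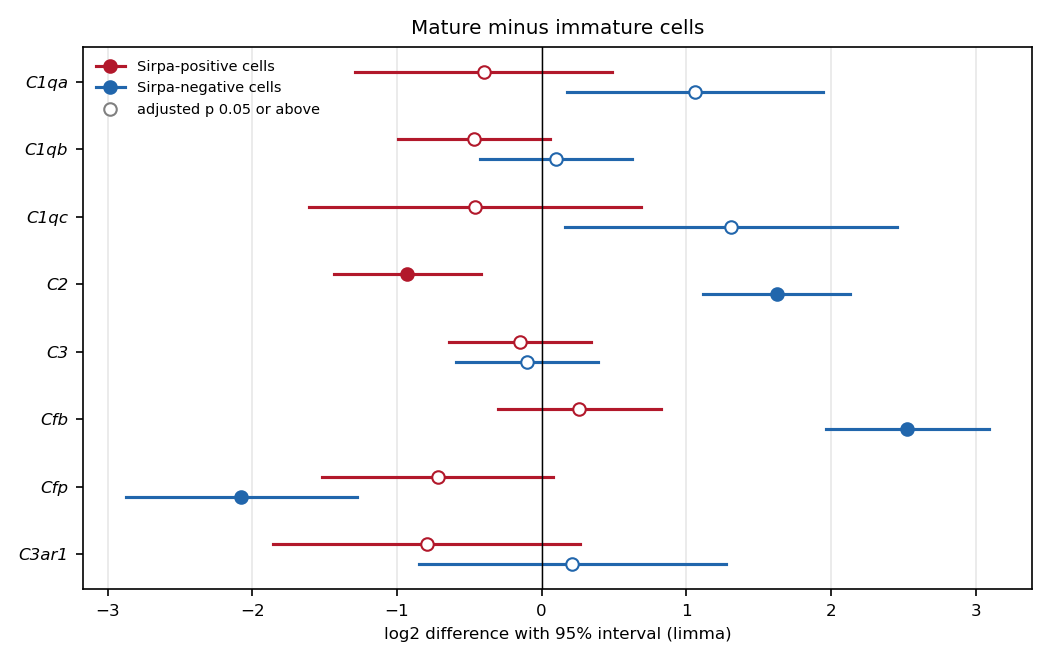
Log2 difference, mature minus immature, of the 8 tested complement genes in Sirpa-positive and in Sirpa-negative cells, with 95% intervals from limma as bars (n = 2 arrays per group) and filled symbols where the adjusted p was under 0.05. The filled points are C2 in both subsets and Cfb and Cfp in Sirpa-negative cells, and C2 is the gene filled on both sides of 0.

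As a share of the Sirpa-positive signal, the Sirpa-negative signal can be set beside that of the sorted receptor. Sirpa itself had 3.54% of its Sirpa-positive signal in Sirpa-negative mature cells and 0.880% in Sirpa-negative immature cells. C1qa had 0.260% in mature and 0.0942% in immature cells, and C1qb 0.374% and 0.253%. These shares are below those of Sirpa in the same state. C3 had 4.26% in mature and 4.12% in immature cells by the probe that stands for it, which is above Sirpa, and 1.28% and 0.749% by its other probe, which is below. C3ar1 had 4.04% and 2.01%, C2 8.29% and 1.41%, Cfb 2.18% and 0.453%, and Cfp 8.97% and 23.0%. No test was made of these shares against each other, and probes differ in their response.

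Of 51 further complement genes on fixed lists, 49 were on the array and 27 were tested. Among immature cells 9 were higher and 2 lower in the Sirpa-positive subset, where 7.23% of all tested genes were higher and 4.39% lower. Among mature cells 6 were higher and 1 lower, where 3.38% of all tested genes were higher and 2.1% lower. Their median log2 difference was 0.56 among immature and 0.27 among mature cells. With maturation 3 were higher and 2 lower in Sirpa-positive cells, against 4.35% and 2.53% of all tested genes. In Sirpa-negative cells 3 were higher, C4b included, and 2 lower, against 9.22% and 7.24% of all tested genes, which is near the background. These genes were tested in the main model only. They too had to be bright in only 1 group, and their lists were chosen with earlier results of these data known. Their counts, here and by list below, are therefore a description and no test of the lists.

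Genes that act beside C1q at the start of the cascade were in part higher in Sirpa-positive cells. C1ra, a protease subunit of the C1 complex that C1q belongs to, was at least 16.0-fold higher in Sirpa-positive than Sirpa-negative immature cells (limma adjusted p = 0.000946) and at least 11.1-fold higher among mature cells (limma adjusted p = 0.00278). C1rb, its near-identical paralog, was 8.35-fold and 4.75-fold higher, and signals of these copies may mix on the array. Fcna, a ficolin that starts the lectin pathway, was at least 7.70-fold higher among immature and at least 3.89-fold higher among mature cells. C4b also passed among immature cells (limma adjusted p = 0.00912), by its fitted difference from a Sirpa-negative signal below background on both arrays. Against the lowest signal counted as above background it was at least 1.33-fold higher. C1s1 and C1s2, the C1s protease genes, did not pass in either state. Of 8 tested initiators 4 were higher among immature and 3 among mature cells, where 7.23% and 3.38% of all tested genes were. C1ra, Fcna and C4b passed the filter only through Sirpa-positive groups, where they are higher. C4b counts among the genes past the threshold for maturation in Sirpa-negative cells, but it was above background on 1 of the 2 mature arrays and on neither immature array, so no rise was measured.

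Few terminal components and regulators were bright enough to be tested. Cfd, factor D of the alternative pathway, was on the array and was not tested either. Hc, the gene of C5, rose 4.87-fold with maturation in Sirpa-positive cells (limma adjusted p = 0.0303, 1 of 2 immature arrays above background) and 7.94-fold in Sirpa-negative cells (limma adjusted p = 0.00642). Unlike the genes above it was lower in Sirpa-positive than Sirpa-negative cells, 4.68-fold among immature and 7.64-fold among mature cells. Clu, clusterin, a fluid-phase inhibitor of membrane attack, rose 26.8-fold with maturation in Sirpa-positive cells (limma adjusted p = 0.00187) and 20.5-fold in Sirpa-negative cells (limma adjusted p = 0.00109). Serping1, the C1 inhibitor, rose 1.97-fold with maturation in Sirpa-positive cells (limma adjusted p = 0.0465) and was 1.96-fold lower in Sirpa-positive than Sirpa-negative immature cells (limma adjusted p = 0.0329). Susd4, a complement regulator, fell 4.88-fold with maturation in Sirpa-positive cells (limma adjusted p = 0.0434) and was at least 6.18-fold higher in Sirpa-positive than Sirpa-negative immature cells. Of 15 regulators 6 were tested, and 3 of 7 terminal components.

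Further receptors of complement and C1q were tested in 10 of 13 cases, and 4 were higher in Sirpa-positive cells in the immature state and 2 in the mature state, where 7.23% and 3.38% of all tested genes were. Lrp1, a scavenger receptor that has been tied to uptake of C1q-coated cells, was 8.58-fold higher in Sirpa-positive than Sirpa-negative immature cells and 3.93-fold higher among mature cells. Lair1, an inhibitory receptor that binds collagen and C1q, was 7.64-fold and 19.0-fold higher. Lrp1 fell 2.22-fold with maturation in Sirpa-positive cells (limma adjusted p = 0.0342), and Lair1 fell 4.20-fold in Sirpa-negative cells (limma adjusted p = 0.00229). C5ar2, a further receptor for C5a and the neighbour of C5ar1 on chromosome 7, was 3.71-fold higher in Sirpa-positive than Sirpa-negative immature cells (limma adjusted p = 0.0116, 1 of 2 Sirpa-negative arrays above background), and Cd93 8.12-fold higher. Itgb2, the common beta chain of complement receptors 3 and 4, fell 2.29-fold with maturation in Sirpa-negative cells (limma adjusted p = 0.0245). Their alpha chains Itgam and Itgax did not pass in the subset comparisons.

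**Figure D4:**
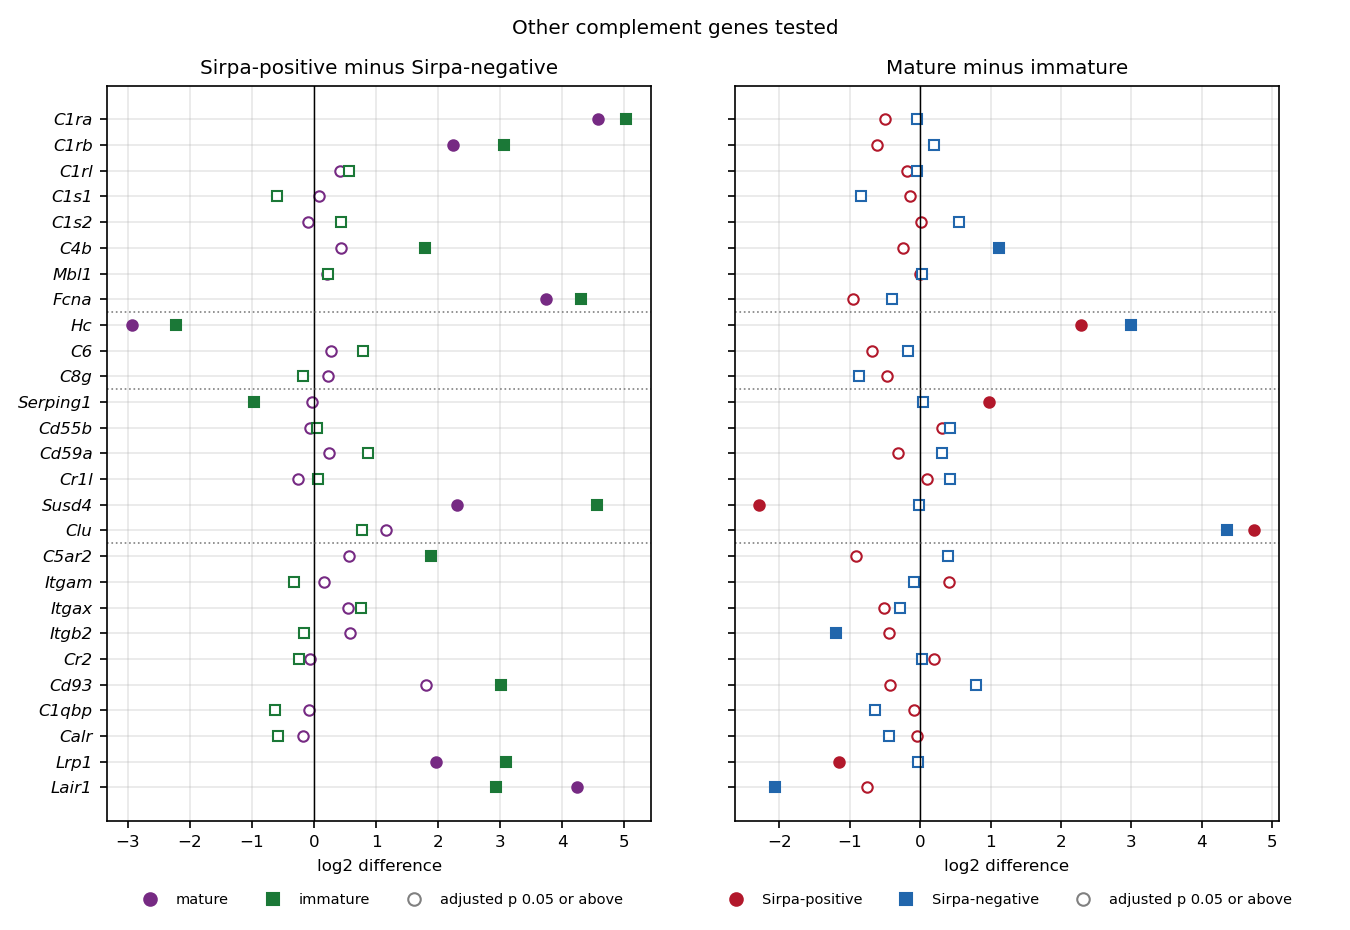
Log2 differences of the 27 other tested complement genes, Sirpa-positive minus Sirpa-negative in the left panel and mature minus immature in the right, with filled symbols where the limma adjusted p was under 0.05 and dotted lines between initiators, terminal components, regulators and receptors. C1ra, Susd4, Fcna and, among immature cells, C4b are drawn at fitted values against a Sirpa-negative signal below background in the left panel. Clu stands highest in the right panel.

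Markers of macrophages moved with the subset difference. Of 20 tested macrophage markers 19 were higher in Sirpa-positive than Sirpa-negative immature cells, all but Cd5l (limma adjusted p = 0.0530). Among mature cells 14 of 20 were higher, with none (0) lower by limma in either state. Over all tested genes 7.23% were higher among immature and 3.38% among mature cells. The summed signal below is that of the macrophage markers. Their summed relative signal per array was 365 to 401 in Sirpa-positive mature cells and 420 to 633 in Sirpa-positive immature cells, against 22.7 to 26.8 in Sirpa-negative mature cells and 17.6 to 18.3 in Sirpa-negative immature cells. Without Apoe, the brightest of them, the sum was 96.4 to 106 in Sirpa-positive mature cells and 137 to 174 in Sirpa-positive immature cells, against 20.5 to 24.99 and 15.6 to 17.1 in the Sirpa-negative mature and immature groups. Of 21 macrophage markers on the array, 18, 20, 13 and 11 were above background on both arrays in the same order of groups. Lyve1 was above background in no group, and Mrc1, Slc40a1, Cd163, Trem2 and Gpnmb were on no Sirpa-negative array. The latter genes entered the tests only through a Sirpa-positive group, so the marker counts are a description. Adgre1, a surface marker of mouse macrophages, was 34.5-fold higher among immature and 39.1-fold higher among mature cells, and Apoe, the lipid carrier made by many macrophages, 233-fold and 136-fold. The part of these cells in the complement result was not tested.

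Monocyte markers moved with the subset as well. Of 9 tested monocyte markers 7 were higher in Sirpa-positive than Sirpa-negative immature cells and 5 among mature cells, against 7.23% and 3.38% of all tested genes. Most of their summed signal came from 1 gene, Ms4a4c. Without it, a choice made after the values were seen, as for the other lists here, the sum was 40.6 to 59.2 in Sirpa-positive mature cells and 83.6 to 109 in Sirpa-positive immature cells, against 4.37 to 6.30 in Sirpa-negative mature cells and 13.1 to 15.1 in Sirpa-negative immature cells. With it the sums were 797 to 1618 and 827 to 952, against 936 to 1065 and 1119 to 1258. Of 15 markers of conventional dendritic cells, which include Sirpa and genes of both subsets, 3 were higher and 5 lower in Sirpa-positive than Sirpa-negative immature cells. Among mature cells 4 were higher and 4 lower. Over all tested genes 7.23% were higher and 4.39% lower among immature cells, and 3.38% and 2.1% among mature cells. Thymocyte and T cell markers moved with maturation. In Sirpa-negative cells, where Cfb and C2 rose and Cfp fell, 13 of 16 were higher in mature cells and their sum was 53.6 to 61.0 in mature and 16.4 to 16.9 in immature cells. In Sirpa-positive cells 6 of 16 were higher, with sums of 57.8 to 63.2 in mature and 43.0 to 48.5 in immature cells. Without Cd4, the brightest of the list over all arrays, the sums were 40.0 to 44.5 in mature and 14.8 to 16.5 in immature Sirpa-positive cells, and 51.0 to 58.6 in mature and 13.4 to 13.6 in immature Sirpa-negative cells. In Sirpa-positive cells 0 of 20 macrophage markers rose and 3 fell with maturation by limma, and in Sirpa-negative cells 6 rose and 2 fell. The part of these cells in the maturation results was not tested.

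**Figure D5:**
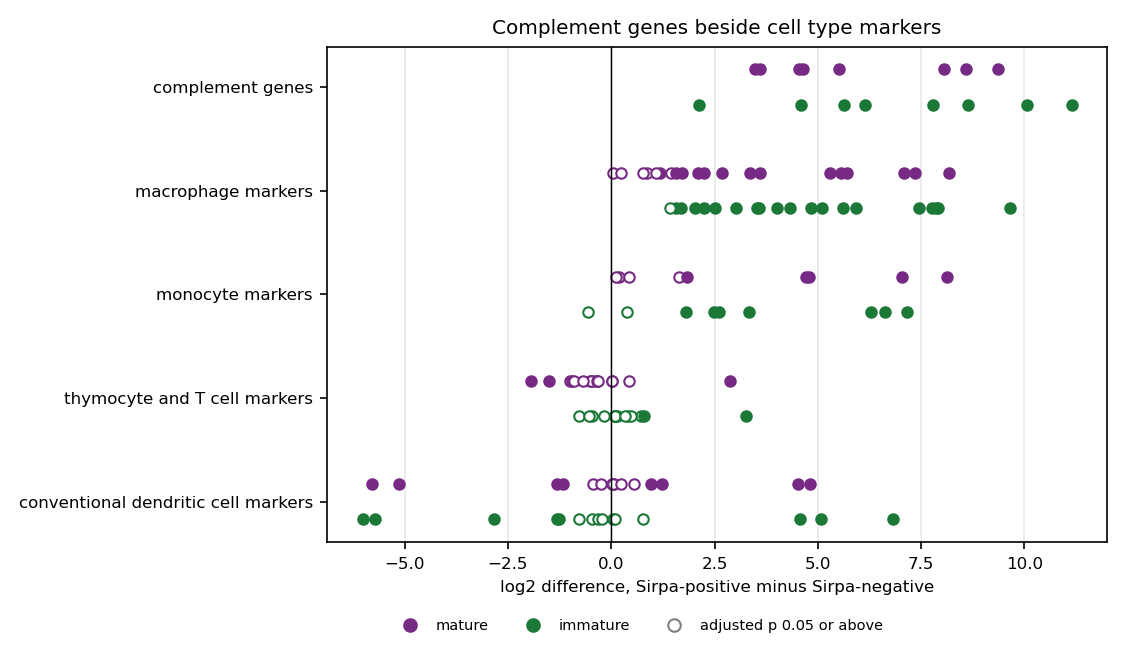
Log2 difference, Sirpa-positive minus Sirpa-negative, of each tested gene of the complement set and of 4 marker lists, for mature and immature cells, with filled symbols where the limma adjusted p was under 0.05. The complement and macrophage rows lie to the right of 0, while the conventional dendritic cell row spreads to both sides.

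Genes with a similar profile were looked for among 4266 genes with a symbol that passed at least 1 subset or maturation comparison. Likeness was the root mean square difference between log2 values over the 8 arrays, each gene centred on its mean. Of the 18 genes nearest to the profiles, 3 for each, 9 were above background on all 4 Sirpa-negative arrays, and distances are given for these. C3 was closest to Tmem119 (0.145), known from microglia, and Cybb (0.224), a subunit of the phagocyte oxidase. That holds for the C3 probe that stands for the gene. Its other probe gave larger subset differences (7.06 among immature and 6.28 among mature cells), and likeness was not computed for it. C2, itself below background on 1 Sirpa-negative array, was closest to Ctsd (0.288), a lysosomal protease, Fam20c (0.331) and Ifit3b (0.334). Ccl9, a chemokine, was closest to Cfb (0.421), Hmox1, which breaks down haem, was near Cfp (0.366), and Timp2 (0.364) and Ifit3 (0.417) were near C3ar1. The other 9 genes were below background on at least some Sirpa-negative arrays, so that their nearness rests partly on signals not measured, and it is not ranked. They were Gpnmb, Ms4a7 and Clec4a3 for the mean of the C1q chains, in which C1qc is below background on these arrays too, Plau for C3, Igf1 and Cmklr1 for Cfb, Tlr5 and Spaca9 for Cfp, and Fpr2 for C3ar1.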

How the data were processed

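Members, lists and motifs were chosen with earlier results of these data known. Per the labels, total RNA of sorted thymic dendritic cells was amplified, labelled with Cy3 and hybridised to 8 Agilent arrays, which lay on 1 slide in 2 rows with 1 array of every group in each row. The deposited scanner files hold spot intensities, background-subtracted by Feature Extraction 10.7.3.1 per the file headers, while the submitters' processing notes name version 10.5. A table of log2 values, deposited by the authors, was used as an alternative only and comes from limma per the submitters' processing notes. Its scale and normalization were inferred from the values.

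Outlier spots (110 to 270 per array) were left out, and spots of a probe were averaged. Each array's processed signal was scaled to its 75th percentile and taken on the log2 scale. Probes above background on both arrays of a group were kept, 33686 of 55681, the brightest stood for its gene, and 24145 genes or accessions were tested, 13865 of them with a symbol. Probe accessions were named through RefSeq GRCm38.p6, while the array header names mm9, so coordinates are those of RefSeq promoters only. One limma model (limma 3.58.1, R 4.3.3) held 4 group means with 4 residual and 3.26 prior degrees of freedom, with two-sided tests and Benjamini-Hochberg adjustment over all genes. It was tested on simulated data. The 2 arrays per group limit the precision. All members were named, other complement genes where they passed (at most 3 per list, comparison and direction), and 3 genes of like profile per member. C4b and C5ar2 among immature cells, C1s1, C1s2, Itgam, Itgax and the single marker genes were named after their values were seen. Alternatives were other background correction, scaling, filters, probe choice, variances, slide row and leaving out each array. Normexp used the median spot signal, since that is the foreground column in the files used here.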

Additional observations from a re-analysis of the deposited data

Results flagged for a closer look

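Members C1qa and C2 drew attention by how their arrays separated. Every mature array lay below the immature arrays in Sirpa-positive cells and above them in Sirpa-negative cells. The share of all tested genes that meet this rule was not counted. With 2 arrays per group such a separation can also arise by chance, so the flag is a description and no test. For C2, the maturation effect in Sirpa-positive minus that in Sirpa-negative cells was -2.55 ± 0.306 (log2 difference with SE, 2 arrays per group, limma adjusted p = 0.0688). C2 had 3.11 and 2.80 in Sirpa-positive mature against 6.05 and 5.23 in Sirpa-positive immature cells, and 0.280 and 0.215 in Sirpa-negative mature against 0.0781 and 0.0808 in Sirpa-negative immature cells. For C1qa that difference was -1.46 ± 0.534 (limma adjusted p = 0.515), and its Sirpa-negative signals were 0.260% of the Sirpa-positive ones in mature and 0.0942% in immature cells. Neither difference passed.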

How the results depend on the processing

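Samples could not be paired by replicate number, because the groups share none. The slide row, which holds 1 array of every group, was used as a block instead. All 286 tested alternatives of the 16 subset results had the same direction, and 285 passed. The exception was Cfp among immature cells without replicate 5. Normexp also put C3ar1 at 4.66 among immature and 3.81 among mature cells. Within the 2 rows of the slide, 32 of 32 subset values and 28 of 32 maturation values had the same direction. Over the alternatives 278 of 286 maturation values and 132 of 135 differences between the maturation effects had it, while 63 and 7 passed. Several alternatives (filters, slide row, variances, only the compared arrays, leaving out an array of another group) leave a gene's log2 difference itself unchanged. The counts of direction above were therefore partly fixed beforehand. Signs turned only in results that did not pass in the main model. In Sirpa-positive maturation this was C1qc without replicate 6 (0.013, with a range of -0.93 to 0.013 when each array was left out) and C3 without replicate 3 (0.031, range -0.33 to 0.031). In Sirpa-negative maturation it was C1qb with median scaling (-0.012) and without replicate 7 (range -0.075 to 0.28), C3 with the mean of its probes (0.30) and with its other probe (0.71, chosen after seeing the data), and C3ar1 without replicates 8 (-0.39, range to 0.81) and 4 (-0.24). For the difference between the effects it was C3 without replicates 6 (0.038), 3 (0.13) and 7 (0.0080), with a range of -0.23 to 0.13. Between the slide rows, C1qc in Sirpa-positive maturation was 0.43 and -1.34. C3ar1 in Sirpa-negative maturation was -0.84 and 1.26.

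The count of complement genes past the threshold in Sirpa-positive maturation, 1, was 2 with normexp, which added Cfp (-0.90, limma adjusted p = 0.0466), and 0 with quantile normalization, with no filter, with only probes above background on all 8 arrays, with the row as a block and with only the compared arrays, and 0 to 1 when an array was left out. In Sirpa-negative maturation, 3 became 2 with normexp and with probes above background on all 8 arrays, 5 with trended and robust variances, which added C1qa (limma adjusted p = 0.0353) and C1qc (limma adjusted p = 0.0470, below background in both groups), and 3 to 4 without an array. Among immature cells 7 to 8 passed without an array. For the difference between the effects, 0 became 2 with normexp, with the authors' values and with trended variances (C2 and Cfb each time), and 1 with the filter on all 8 arrays (Cfb). Trended variances gave limma adjusted p = 0.00564 for C2 and 0.00625 for Cfb. With the filter on all 8 arrays C2 and C1qc were not tested, so the counts under that filter leave them out.

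Counts over all genes moved too. Sirpa-positive maturation had 1662 in the main model, 430 with no filter, 1061 with the row as a block, 393 to 1542 without an array and 4887 at an unadjusted p under 0.05 (added after seeing the data, like those below). Sirpa-negative maturation had 3975, with 1615 unfiltered, 2043 from the compared arrays only, 1790 to 3655 without an array and 7197 unadjusted. The immature subset comparison had 2807, with 1557 unfiltered, 1232 to 2771 without an array and 5930 unadjusted, and the mature one 1322, with 579 unfiltered, 636 to 1264 without an array and 4033 unadjusted. The difference between the effects had 0, with 178 under normexp, 1 with median scaling, 148 with the authors' values, 101 with the filter on all 8 arrays, 4 with the mean of probes, 186 with trended variances, 0 to 1 without an array and 1945 unadjusted. Rises were 63.2% of the calls in Sirpa-positive maturation and 51.0% with normexp. Median scaling put the median of all genes at -0.07 in Sirpa-positive and -0.12 in Sirpa-negative maturation, against 0.03 and -0.01. The cause of these changes was not tested.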
